A study of Mus musculus with 12 samples.

Results

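NK lectin receptors are transmembrane proteins first known from natural killer (NK) cells, and activated T cells can express several of them. The genes described were 6 receptor genes, Klrk1, Klrd1, Klrc1, Klrc2, Klrg1 and Klre1, and 2 adaptor genes, Hcst and Tyrobp. They were chosen by symbol as a receptor and adaptor family, with earlier results of these data known, and they are 8 of the 25078 genes in the count table. The study asked how loss of STAT3, alone or together with loss of PD-1, alters donor T cells in a mouse model of graft-versus-host disease. Donor T cells were recovered from the liver at day 6 after hematopoietic cell transplantation (HCT) and sorted into CD4+ and CD8+ fractions for bulk RNA-Seq. The recipients were BALB/c mice, lethally irradiated and given T cell-depleted bone marrow from WT C57BL/6 mice in every group.

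The donor T cells that were added differed in genotype. The WT group received T cells from C57BL/6 mice. The STAT3ko group received T cells from C57BL/6 mice with floxed Stat3 deleted by Cre under the CD4 promoter, which acts in both CD4+ and CD8+ T cells. The STAT3ko PD-1ko group received T cells that carried the same deletion and in addition lacked PD-1 through a germline knockout. T cells lacking PD-1 alone were not analysed here, so loss of PD-1 was compared in STAT3-deficient cells. The paper reports severe acute graft-versus-host disease from WT and from STAT3ko PD-1ko T cells. From STAT3ko T cells it reports only mild disease that was reversible. Where STAT3ko is compared with another genotype, genotype and the recipients' disease cannot be told apart here. Each of the 6 groups (3 genotypes in CD4 and in CD8) had 2 libraries, and each library came from cells pooled from 3 recipients, sorted on the donor marker H-2Kb, on TCRβ and on CD4 or CD8. The 12 libraries held 21676125 to 24551477 counted reads, with a median of 23442480.

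NKG2D, encoded by Klrk1, is an activating receptor that recognizes stress-induced MHC class I-like proteins and signals through DAP10, the product of Hcst, which recruits PI3K. CD94, encoded by Klrd1, forms dimers either with the inhibitory NKG2A (Klrc1) or with the activating NKG2C (Klrc2), and in mice these dimers bind the nonclassical class I molecule Qa-1b. NKG2C signals through DAP12, the ITAM-bearing adaptor encoded by Tyrobp. KLRG1 is an inhibitory receptor for cadherins and a marker of effector CD8+ T cells, and KLRE1 pairs with KLRI proteins on NK cells.

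On the mm10 build, 6 receptor genes lay on chromosome 6. Klre1 (chr6:129578286-129585827, plus strand), Klrd1 (chr6:129591810-129598775, plus), Klrk1 (chr6:129610323-129623864, minus), Klrc2 (chr6:129656346-129660596, minus) and Klrc1 (chr6:129666016-129678973, minus) lay in 1 stretch with Klrc3, which is not a member, between Klrk1 and Klrc2, and Klrg1 (chr6:122270597-122282833, minus) stood apart from them. Hcst (chr7:30417712-30419854, minus) and Tyrobp (chr7:30413782-30417579, plus) were neighbours on chromosome 7, with their 3′ ends 132 bases apart and no overlap. RefSeq promoter windows (GRCm38.p6) were matched for 5 of the 8 genes, and no window was matched for Klrd1, Klrg1 or Tyrobp. The 250 bases before the start of Klrk1, Klrc1, Klrc2 and Hcst are shown because these genes give the contrasts described below: Klrk1 rose in CD4 STAT3ko cells where Klrc1 did not pass the test, and Klrc1, Klrc2 and Hcst fell in CD8 STAT3ko PD-1ko cells. The letters of the RUNX motif (TGTGGT or its reverse ACCACA) are in capitals in the first 3 windows and those of the ETS motif (GGAAGT or its reverse ACTTCC) in the Hcst window. All 4 are written 5′ to 3′ on the minus strand, at chr6:129623865-129624114, chr6:129678974-129679223, chr6:129660597-129660846 and chr7:30419855-30420104.
Klrk1: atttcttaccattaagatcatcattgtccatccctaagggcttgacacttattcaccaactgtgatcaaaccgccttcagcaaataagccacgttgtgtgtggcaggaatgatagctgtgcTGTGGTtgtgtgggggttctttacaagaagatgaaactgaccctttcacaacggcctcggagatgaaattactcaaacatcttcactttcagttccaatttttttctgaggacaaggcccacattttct
Klrc1: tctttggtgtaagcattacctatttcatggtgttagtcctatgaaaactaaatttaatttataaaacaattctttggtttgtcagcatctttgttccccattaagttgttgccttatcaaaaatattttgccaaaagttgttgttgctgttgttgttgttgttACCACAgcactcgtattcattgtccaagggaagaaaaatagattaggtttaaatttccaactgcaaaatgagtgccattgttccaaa
Klrc2: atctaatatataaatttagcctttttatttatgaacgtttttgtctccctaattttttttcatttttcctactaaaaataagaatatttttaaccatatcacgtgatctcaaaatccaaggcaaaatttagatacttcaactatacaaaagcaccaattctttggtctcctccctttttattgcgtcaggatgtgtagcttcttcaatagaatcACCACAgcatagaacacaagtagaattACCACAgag
Hcst: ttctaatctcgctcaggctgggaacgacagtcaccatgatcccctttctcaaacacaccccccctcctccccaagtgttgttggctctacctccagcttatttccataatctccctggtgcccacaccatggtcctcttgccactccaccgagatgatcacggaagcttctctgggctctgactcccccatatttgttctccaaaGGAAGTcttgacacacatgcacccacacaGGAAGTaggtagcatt

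The RUNX letters occurred once in the Klrk1 window, once in the Klrc1 window and at 2 places in each of the 2 Klrc2 windows. These 2 Klrc2 windows overlap, and the 2 places are the same in both. The letters occurred also in 1 of the 2 Klre1 windows and not in the Hcst window. At least 1 match was found in 14.0% of 32851 RefSeq promoter windows of the same length. The ETS letters occurred at 2 places in the Hcst window and in 19.7% of all windows. The STAT letters TTCNNNGAA, searched on both strands, were in none of the members' windows and in 7.02% of all windows. The T-box letters (TCACAC or GTGTGA) were in 1 of the 2 Klre1 windows and in 12.3% of all windows. These motifs were chosen with results known, no 2 of the letter strings overlap each other in these windows, and a match or its absence describes letters in this window and nothing about a factor. Windows of the read length, 51 bases, were compared between transcripts: 37.9% of those in Klrc1 and 16.0% of those in Klrc2 occurred also in another Klrc gene. How the counting split or dropped such reads is uncertain, and so are the levels of Klrc1 and Klrc2 relative to each other and to the other members. No window was shared for Klrk1, Klrd1, Klrg1, Hcst or Tyrobp, and 0.252% were shared for Klre1.

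The targeted genes and the sort markers were read first. Levels below are CPM, read counts scaled by TMM to a common library size, unless RPKM, which also divides by transcript length, is named. Stat3 was at 369 and 467 CPM in the CD4 WT libraries, 140 and 164 in STAT3ko and 157 and 219 in STAT3ko PD-1ko. CD8 libraries had 397 and 384 CPM, then 149 and 136, then 154 and 235. All STAT3-deficient libraries were below the WT libraries of their subset. In edgeR's quasi-likelihood test across all genes, with Benjamini-Hochberg adjustment, Stat3 itself missed the 0.05 threshold in STAT3ko against WT (log2 fold change −1.46 in both subsets, adjusted p = 0.0550 in CD4 and 0.108 in CD8) and passed in STAT3ko PD-1ko against WT (−1.13, adjusted p = 0.0180, and −0.996, adjusted p = 0.0177). Reads from deleted and retained exons were not told apart in gene counts. Pdcd1, the PD-1 gene, fell from 247 and 235 CPM in CD4 WT to 55.1 and 26.0 in CD4 STAT3ko PD-1ko (adjusted p = 0.00566) and from 376 and 307 to 93.6 and 65.6 in CD8 (adjusted p = 0.00243), and it was at 261 and 323 CPM in CD4 STAT3ko and 424 and 454 in CD8 STAT3ko.

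Cd8a had 9 to 142 counts in the CD4 libraries against 13462 to 33522 in the CD8 libraries, and Cd4 had 8 to 67 counts in the CD8 libraries. Of 10 NK cell markers, Ncr1, Klra4, Klra8, Klra9 and Cma1 stayed below 10 counts in every library, with Klra4 and Klra8 at 0 throughout. The remaining markers, led by Itga2, Klrb1c and Fcer1g, gave a summed level of 47.2 to 139 CPM. The sum was 130 and 114 CPM in CD4 WT, 94.99 and 100.2 in CD4 STAT3ko and 64.3 and 50.7 in CD4 STAT3ko PD-1ko, so it was lowest where PD-1 was also absent. The CD8 sums were 126 and 139, then 92.2 and 122, then 64.7 and 47.2 CPM. The summed NK markers were thus lowest in the STAT3ko PD-1ko libraries, as were Klrd1, Klrc1, Klrc2 and Hcst of the members in both subsets and also Klrk1 and Klre1 in CD8, while Ncr1 and the Ly49 genes of the list were near 0 in every group. Itga2 fell in STAT3ko PD-1ko against WT (log2 fold change −1.85 in CD4 and −1.65 in CD8, adjusted p = 0.00321 and 0.00438), Klrb1c fell in CD8 (−1.62, 0.0280), and Fcer1g rose in CD4 (1.29, 0.0293). The part of any NK cells in the members' levels was not tested beyond these values.

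**Figure D1:**
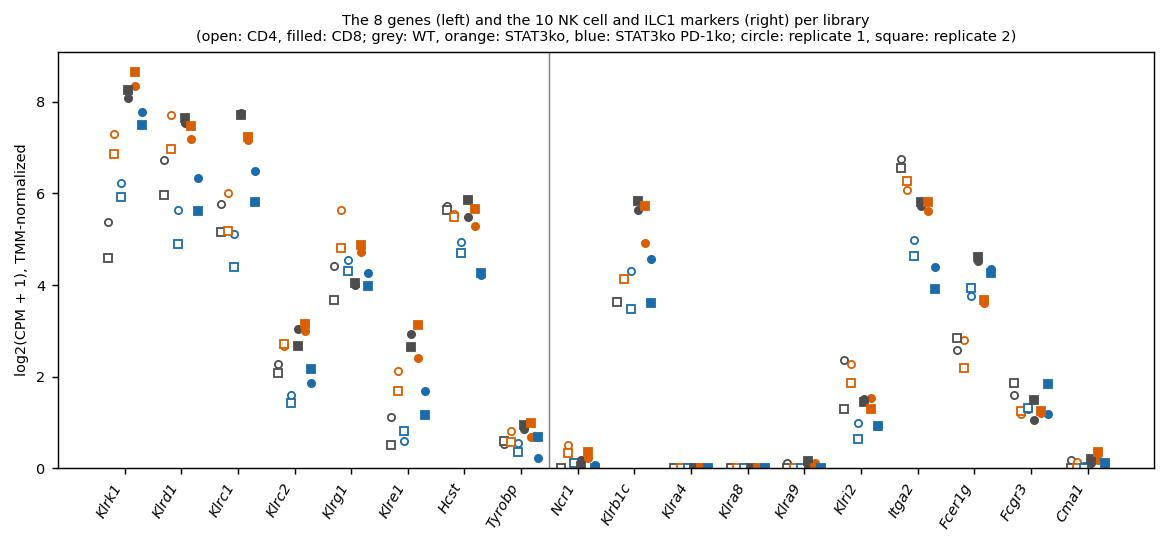
Levels of the 10 NK cell markers in the 12 libraries. Summed over the markers, the STAT3ko PD-1ko libraries of both subsets held 47.2 to 64.7 CPM, below the WT libraries at 114 to 139 CPM. Much of the sum came from 1 gene, Itga2, with 107 of 130 CPM in CD4 WT replicate 1 and 52.0 of 126 in CD8 WT replicate 1.

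Klrk1, which encodes NKG2D, was the member whose level differed most between the subsets in WT cells. It was at 40.8 and 22.9 CPM in CD4 WT, 157 and 115 in CD4 STAT3ko, and 74.2 and 59.4 in CD4 STAT3ko PD-1ko. CD8 libraries had 272 and 303 CPM in WT, 322 and 403 in STAT3ko, and 218 and 179 in STAT3ko PD-1ko. The 3 genotypes did not overlap in either subset, and STAT3ko was highest and every CD8 library was above every CD4 library. In CD4 the order was STAT3ko, STAT3ko PD-1ko, WT, whereas in CD8 STAT3ko PD-1ko was lowest.

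Klrd1, which encodes the shared chain CD94, was at 106 and 61.9 CPM in CD4 WT, 208 and 125 in CD4 STAT3ko, and 49.0 and 28.9 in CD4 STAT3ko PD-1ko. The CD8 libraries held 186 and 198 CPM in WT, 145 and 176 in STAT3ko, and 79.6 and 48.1 in STAT3ko PD-1ko. STAT3ko PD-1ko was lowest in both subsets without overlap, and the CD4 STAT3ko values overlapped those of the CD8 groups that kept PD-1. Klrc1, encoding the inhibitory NKG2A, was at 53.4 and 34.7 CPM in CD4 WT, 63.1 and 35.2 in CD4 STAT3ko and 33.8 and 20.1 in CD4 STAT3ko PD-1ko. In CD8 it was at 215 and 210 CPM in WT, 142 and 149 in STAT3ko and 89.5 and 54.9 in STAT3ko PD-1ko, with no overlap between genotypes. In CD4 the WT and STAT3ko values overlapped. Klrc2, encoding the activating NKG2C, was low, at 1.71 to 7.93 CPM over all libraries. It was at 3.86 and 3.22 CPM in CD4 WT, 5.37 and 5.51 in CD4 STAT3ko and 2.03 and 1.71 in CD4 STAT3ko PD-1ko. In CD8 it was at 7.29 and 5.39, then 6.99 and 7.93, then 2.65 and 3.51 CPM. The STAT3ko PD-1ko libraries were the lowest in both subsets.

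Klrg1, encoding the inhibitory cadherin receptor, was at 20.3 and 11.7 CPM in CD4 WT, 49.0 and 27.1 in CD4 STAT3ko and 22.3 and 18.9 in CD4 STAT3ko PD-1ko. Values in CD8 were 14.99 and 15.5 CPM in WT, 25.5 and 28.5 in STAT3ko and 18.2 and 14.7 in STAT3ko PD-1ko. STAT3ko was highest in both subsets, and STAT3ko PD-1ko overlapped WT in both. Klre1, encoding a receptor of NK cells, had 10 to 188 counts a library. It was at 1.18 and 0.423 CPM in CD4 WT, 3.34 and 2.22 in CD4 STAT3ko and 0.519 and 0.754 in CD4 STAT3ko PD-1ko, and in CD8 at 6.63 and 5.27, 4.27 and 7.69, and 2.21 and 1.22. It was highest in STAT3ko among the CD4 groups and lowest in STAT3ko PD-1ko among the CD8 groups.

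Hcst, the DAP10 gene, was at 51.7 and 48.5 CPM in CD4 WT, 46.2 and 44.0 in CD4 STAT3ko and 29.7 and 24.8 in CD4 STAT3ko PD-1ko. Values in CD8 were 43.9 and 56.8 CPM in WT, 37.9 and 49.3 in STAT3ko and 17.7 and 18.2 in STAT3ko PD-1ko. It was lowest where both STAT3 and PD-1 were absent, in both subsets. Tyrobp, the DAP12 gene, was nearly undetected, with 4 to 24 counts a library (0.177 to 0.981 CPM), so differences in it could not be resolved at this depth.

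On the length-corrected scale, Hcst and Klrd1 were the most abundant members in CD4 WT and Klrd1 in CD8 WT, at the levels as counted. Their mean RPKM was 113 ± 5.21 and 96.8 ± 36.0 in CD4 WT (SD, n = 2), a difference within the spread of Klrd1, and 114 ± 20.6 and 221 ± 9.99 in CD8 WT. Klrc1, whose level is uncertain because of shared reads, was at 22.2 ± 6.68 in CD4 WT and 107 ± 1.70 in CD8 WT, and Klrk1 was at 9.53 ± 3.77 and 86.0 ± 6.67. Klrk1 and Klrg1 (11.7 ± 4.43) did not differ beyond their spread in CD4 WT. In CD4 STAT3ko, Klrk1 was at 40.6 ± 8.93 RPKM and Klrc1 at 24.8 ± 9.93, and their order is uncertain for the same reason. Klrc2, Klre1 and Tyrobp were the lowest members in every group, at 9.54 mean RPKM or below. In these bulk samples, fewer cells that express a gene and less RNA per cell cannot be told apart.

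The first comparison asked what loss of STAT3 alone changed. In CD4 cells Klrk1 rose in STAT3ko, 4.28-fold over WT (log2 fold change 2.10 ± 0.29, SE), and it was the only member of the 8 that passed (edgeR adjusted p = 0.0413), where 0.334% of 11959 genes tested passed. The other receptors that sat above WT without overlap did not pass, namely Klrd1 at 0.99 (adjusted p = 0.371), Klrc2 at 0.62 (0.447), Klrg1 at 1.25 (0.231) and Klre1 at 1.80 (0.244). These 5 of 8 members lay above WT with no overlap, compared with 18.8% of all genes, and 1, Hcst, lay below, compared with 19.4%. The members had a median log2 fold change of 0.81, and all genes tested one of 0.01. Klrc1 was at 0.16 (adjusted p = 0.932) and Hcst at −0.15 (0.833), the inhibitory partner of CD94 and the NKG2D adaptor. The library numbers in the labels run in 2 series, 1 for each replicate number. With that number as a block, Klrd1 (0.995, adjusted p = 0.00766) and Klrg1 (1.25, 0.0186) passed as well as Klrk1, where 303 of all genes passed. Without the block, the Klrk1 call was lost without CD4 WT replicate 2 (log2 fold change 1.74, adjusted p = 0.102), in a fit of only the 4 libraries compared (adjusted p = 0.182) and by limma on log2(RPKM + 1) (adjusted p = 0.0569). For a single gene an exact permutation test of 2 against 2 libraries cannot go below p = 0.333, and the fits give p-values that measure the spread between 2 pools.

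In CD8 cells none of the 8 members passed in STAT3ko against WT by edgeR, 2 were below 0.05 before adjustment (Klrg1 and Klrc1), and 1 passed by DESeq2, Klrg1 (adjusted p = 0.00472, among 218 calls over all genes). The background was low, with 0.0583% of 12002 genes called and 11% below 0.05 before adjustment. Klrg1 had a log2 fold change of 0.82 ± 0.17 (edgeR adjusted p = 0.213), Klrc1 of −0.55 (0.411), Klrk1 of 0.33 (0.507) and Klrd1 of −0.26 (0.738). Klrk1 and Klrg1 lay above WT and Klrd1 and Klrc1 below it with no overlap, and across all genes 22.5% lay above and 21.1% below. The members' median was −0.05.

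With both STAT3 and PD-1 absent, Klrd1, Klrc1, Klrc2, Klre1 and Hcst fell against WT in CD8 cells. Of these, Hcst alone fell in CD4 cells in the main edgeR fit, and other settings called more of them. In CD8 cells 5 of 8 members fell and none rose, where 17.2% of genes passed and 8.21% fell. Klrd1 fell by 1.58 ± 0.23 on the log2 scale (adjusted p = 0.00841), Klrc1 by 1.55 ± 0.21 (0.00715) and Klre1 by 1.78 ± 0.40 (0.0254). Thus both the shared CD94 chain and its inhibitory partner were at less than their WT level in both libraries. Klrc2 fell by 1.03 ± 0.27 (adjusted p = 0.0393) and Hcst by 1.48 ± 0.19 (0.00590). Klrk1 was at −0.53 (0.0592), Klrg1 at 0.12 (0.658) and Tyrobp at −1.09 (0.250). The median of the members was −1.28 against 0.00 for all genes. Leaving out 1 library left 3 calls (Klrd1, Klrc1 and Hcst) without WT replicate 1, WT replicate 2 or STAT3ko PD-1ko replicate 1, and 1 call, Klrc1, without STAT3ko PD-1ko replicate 2. The count of all genes called went from 2066 to 1107, 674, 835 and 111 in these fits, in that order. Without STAT3ko PD-1ko replicate 2, Klrd1 was at −1.27 (adjusted p = 0.0524), Hcst at −1.51 (0.0669) and Klre1 at −1.43 (0.146). Klrk1 passed as well with the replicate number as a block (−0.52, adjusted p = 0.0485), by DESeq2 (0.0133) and when all genes with at least 1 count were tested (0.0260). In a fit of only the 4 libraries Klrc2 missed (adjusted p = 0.0534) and Klrk1 passed (−0.53, 0.0438).

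In CD4 cells the same comparison divided NKG2D from its adaptor. Klrk1 rose (log2 fold change 1.09 ± 0.28, adjusted p = 0.0458) and Hcst fell (−0.86 ± 0.16, adjusted p = 0.0151), 2 calls among 8 members where 12.9% of genes passed. Klrd1 at −1.08 (adjusted p = 0.0916), Klrc2 at −0.90 (0.0677) and Klrc1 at −0.69 (0.248) lay below WT with no overlap and did not pass in the main fit. Without a block, Klrd1 passed by DESeq2 (adjusted p = 0.0164), with all genes with at least 1 count (0.0293) and with only the 4 libraries (0.0334). Klrc2 passed with all 12 libraries in 1 fit (0.0285) and by limma with pseudocount 1 (0.0427) or 0.1 (0.0385). With the replicate number as a block all 3 passed, Klrd1 at −1.08 (adjusted p = 0.000834), Klrc1 at −0.70 (0.00733) and Klrc2 at −0.90 (0.0325), where 3104 of 11959 genes passed. Altogether 4 members lay below and 1 above WT, and 29.5% and 29.6% of all genes did so. Klrg1 was at 0.39 and Klre1 at −0.29. Without the block the calls were lost with 1 library left out: 1 remained without CD4 WT replicate 1 (Klrk1), and none without WT replicate 2 or without either STAT3ko PD-1ko replicate. The count of all genes called went from 1538 to between 62 and 676 in these fits, while Klrk1 stayed between 0.73 and 1.23 where its call was lost and Hcst between −0.98 and −0.74. With RLE in place of TMM factors Klrk1 just missed the threshold (adjusted p = 0.0505).

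The last genotype comparison set STAT3ko PD-1ko against STAT3ko, so that the donor T cells differed in PD-1 and the recipients also in disease. All 8 members had lower values in both CD4 STAT3ko PD-1ko libraries than in either CD4 STAT3ko library, compared with 30.8% of all genes. Of them 4 fell, where 11.1% of genes passed and 5.03% fell: Klrd1 by 2.07 ± 0.37 on the log2 scale (adjusted p = 0.0182), Klrc2 by 1.52 ± 0.27 (0.0174), Klre1 by 2.09 ± 0.52 (0.0436) and Hcst by 0.71 ± 0.16 (0.0320). Klrk1 was at −1.01 (0.0605), Klrc1 at −0.85 (0.160), Klrg1 at −0.86 (0.135) and Tyrobp at −0.70 (0.385). With the replicate number as a block 7 fell, where 3105 of 11959 genes passed. Klrk1 (−0.995, adjusted p = 0.00394), Klrc1 (−0.84, 0.00496) and Klrg1 (−0.81, 0.0172) fell in addition. Without a block Klrk1 also passed by DESeq2 (adjusted p = 0.0072) and when all genes with at least 1 count were tested (0.0192). Klrk1 passed too with only the 4 libraries (0.0246) and with all 12 in 1 fit (0.0231). In CD8, 7 of 8 members fell, where 16.8% of genes passed and 8.05% fell. Hcst fell by 1.27 ± 0.19 (adjusted p = 0.00936), Klrd1 by 1.32 ± 0.23 (0.0139) and Klrk1 by 0.86 ± 0.16 (0.0158). Klrc1 and Klrc2 also fell, by 1.00 and 1.26, as did Klre1 by 1.80 and Klrg1 by 0.70 (adjusted p 0.0232 to 0.0308). Tyrobp overlapped between the groups. The members' medians were −0.93 in CD4 and −1.13 in CD8, beside −0.01 and 0.00 for all genes.

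These counts changed with single libraries, and so did the counts of all genes called, which went from 1324 to 66 in CD4 without STAT3ko PD-1ko replicate 1 and to 0 without its replicate 2. In those fits Klrd1 was at −2.495 (adjusted p = 0.0671) and −1.75 (0.178), so its value stayed below 0 while its call was lost. In CD4, 5 calls were made without STAT3ko replicate 2, 2 without STAT3ko replicate 1 (Klrd1 and Klrc2) and none without either STAT3ko PD-1ko replicate. In CD8, 6 were made without STAT3ko replicate 1, 5 without STAT3ko PD-1ko replicate 1, 2 without STAT3ko replicate 2 (Klrd1 and Hcst) and none without STAT3ko PD-1ko replicate 2, where the number of all genes called also dropped from 2017 to 2, with Klrd1 at −1.01 (adjusted p = 0.0733) and Hcst at −1.30 (0.0866). In one fit of all 12 libraries Klrc1 (adjusted p = 0.0648) and Klrg1 (0.125) no longer passed in CD8, and Klrg1 missed without TMM scaling (0.0506). Each group was used in more than 1 comparison, so the comparisons are not independent of each other. Over the 6 genotype comparisons, in the main edgeR fits, Hcst fell in 4, Klrd1, Klrc2 and Klre1 in 3 each and Klrc1 in 2. In the same fits Klrk1 rose in 2 and fell in 1, Klrg1 fell in 1 and Tyrobp passed in none. Other settings, with or without a block, changed these counts.

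**Figure D2:**
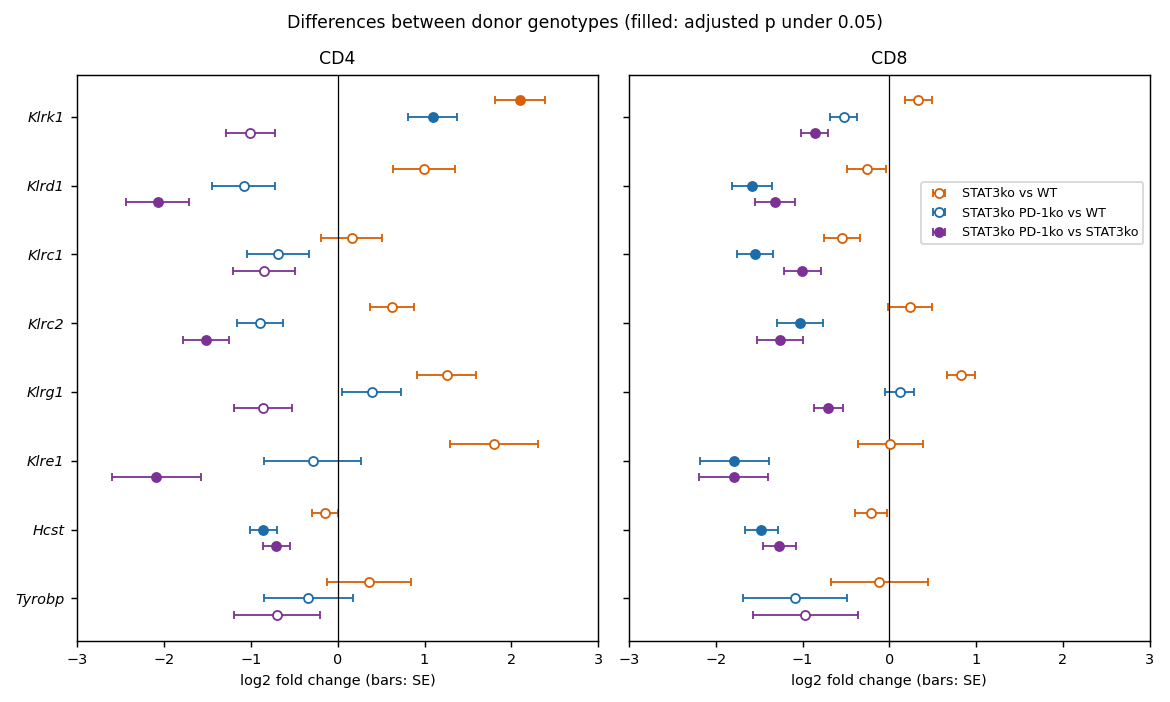
Log2 fold changes of the 8 members between donor genotypes (x axis, points with SE bars) in CD4 (left) and CD8 (right), with filled points for an edgeR adjusted p under 0.05. Klrk1 lies above WT in both CD4 comparisons with WT, and Hcst is filled and below 0 in all 4 comparisons that involve STAT3ko PD-1ko.

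CD8 and CD4 cells were then compared within each genotype in one fit of all 12 libraries. In WT, 3 of 8 members were higher in CD8, where 10.5% of 12334 genes passed and 4.91% were higher in CD8: Klrk1 by 3.17 ± 0.28 on the log2 scale (adjusted p = 8.9e-05), Klrc1 by 2.27 ± 0.35 (0.00268) and Klre1 by 2.89 ± 0.50 (0.00494). Same-numbered CD4 and CD8 libraries came from the same livers and deviated together, and with the pool as a block Klrd1 (log2 fold change 1.24, adjusted p = 0.00790) and Klrc2 (0.83, 0.0107) passed as well, where 2991 of 12334 genes passed. In STAT3ko, Klrk1 (1.42, adjusted p = 0.00779) and Klrc1 (1.57, 0.0179) were higher in CD8, where 9.62% of genes passed and 4.81% were higher. Klrd1 showed no gap there, at −0.05 (0.963). In STAT3ko PD-1ko, Klrk1 (1.57, 0.00924) and Klrc1 (1.42, 0.0482) were again higher, where 4.14% of genes passed and 1.65% were higher, and Hcst was at −0.60 (0.0922, or 0.0399 with the pool block, where 1774 genes passed). Klrg1 passed in none of the 3 genotypes, with log2 fold changes of −0.07, −0.50 and −0.33.

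Leaving out 1 library kept the 3 WT calls each time. In STAT3ko, Klrk1 and Klrc1 both passed without CD4 replicate 1, Klrk1 alone passed without CD8 replicate 1, and neither passed without CD4 replicate 2 or CD8 replicate 2. In STAT3ko PD-1ko, Klrk1 alone passed without CD4 replicate 1 or CD8 replicate 2, and neither passed without CD4 replicate 2 or CD8 replicate 1. Klrc1 in that genotype also missed when genes needed 10 counts in every library (adjusted p = 0.0509) and by limma on log2(RPKM + 1) (0.05003).

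**Figure D3:**
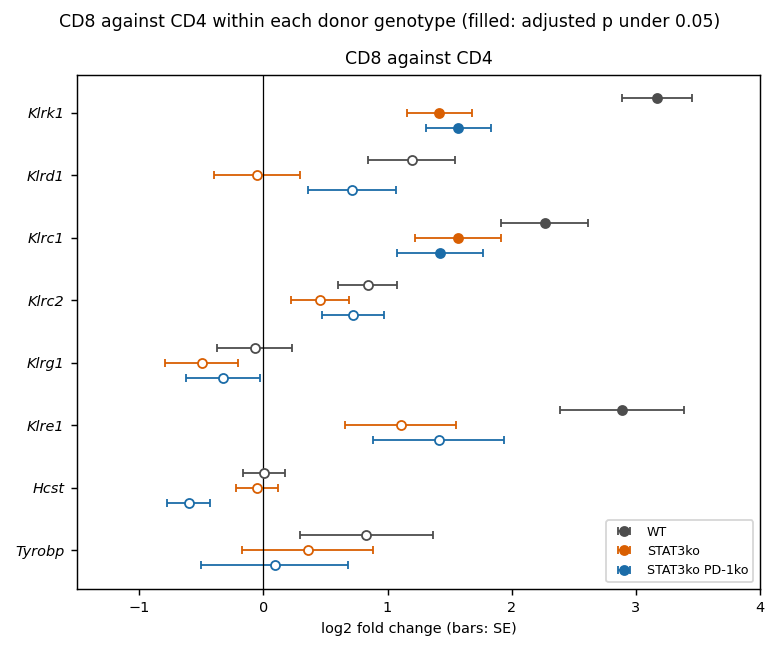
Log2 fold changes of the 8 members in CD8 against CD4 libraries of the same donor genotype (x axis, points with SE bars), with filled points for an edgeR adjusted p under 0.05. Klrk1 is furthest to the right in WT at 3.17 and lies at 1.42 and 1.57 in the STAT3-deficient groups, and Hcst and Klrg1 lie at or left of 0.01.

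Whether the subsets differed in their response to genotype was tested as an interaction. After the main filter no member passed by edgeR in STAT3ko against WT, STAT3ko PD-1ko against WT or STAT3ko PD-1ko against STAT3ko. There 0%, 0.00811% and 0% of all genes passed. Before adjustment 3, 2 and 1 members were below 0.05, where 1.85%, 4.43% and 3.59% of all genes were, and DESeq2 called 1, 1 and 0 members among 5, 75 and 21 of all genes. For Klrk1 the log2 fold change in CD8 minus that in CD4 was −1.76 ± 0.37 for STAT3ko against WT (edgeR adjusted p = 1.00) and −1.60 ± 0.37 for STAT3ko PD-1ko against WT (0.254). By DESeq2 both passed for Klrk1 (adjusted p = 0.00736 and 0.00585). The second also passed by edgeR when all genes with at least 1 count were tested (adjusted p = 0.0134). For STAT3ko PD-1ko against STAT3ko the difference for Klrk1 was 0.16, and for Hcst it was −0.55 (adjusted p = 1.00).

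Cd8a, a marker of CD8 cells, was read beside Klrk1 in the CD4 libraries. Its level in the CD4 libraries was 0.0420% and 0.0601% of that in the same-numbered CD8 library in WT, 0.0414% and 0.165% in STAT3ko, and 0.189% and 0.957% in STAT3ko PD-1ko. Klrk1 in the CD4 libraries was 15.01% and 7.57% of its CD8 level in WT, 48.7% and 28.5% in STAT3ko, and 34.1% and 33.2% in STAT3ko PD-1ko. The Klrk1 share was above the Cd8a share in each pair, and the part of any CD8 cells in the Klrk1 level of the CD4 libraries was not tested. In the CD8 libraries Cd8a itself fell in STAT3ko PD-1ko, from 1191 and 1339 CPM in WT to 595 and 589 (log2 fold change −1.09, adjusted p = 0.00414), and so did Cd8b1 (−0.87, 0.00531). In the CD4 libraries Cd4 fell in STAT3ko PD-1ko as well, from 1844 and 1881 CPM in WT to 1323 and 1242 (−0.52, 0.0375), and so did Cd40lg (−1.01, 0.01997), 2 of the 3 CD4 cell markers. The part of these shifts in the members' decline was not tested.

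The share of Klrc1 relative to Klrk1 was lower in every STAT3-deficient library than in WT. Klrc1 made up 68.8% and 71.8% of the summed Klrc1 and Klrk1 RPKM in CD4 WT, 40.4% and 34.1% in CD4 STAT3ko and 43.5% and 36.3% in CD4 STAT3ko PD-1ko. In CD8 the share was 57.1% and 53.9% in WT, 42.7% and 38.4% in STAT3ko and 40.9% and 34.1% in STAT3ko PD-1ko. The WT libraries were above all STAT3-deficient libraries in each subset, and the STAT3-deficient groups overlapped each other. Since part of the Klrc1 reads may be split or dropped, the size of the share, and whether it lies above or below 50%, is uncertain. These shares combine the genes tested above, so they describe the same difference and were not tested again.

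**Figure D4:**
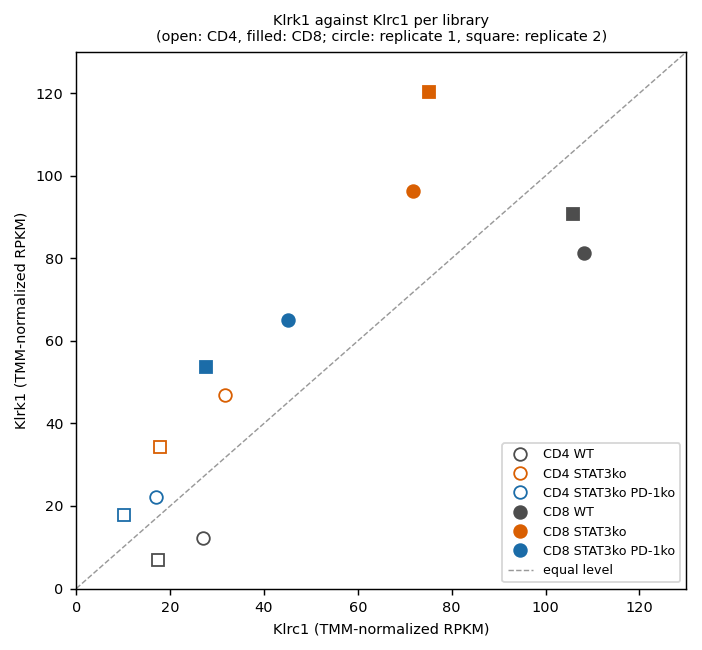
Klrk1 (y axis) against Klrc1 (x axis), both in TMM-normalized RPKM, with 1 point per library, colours for genotype and a dashed line of equal level. Open points are CD4 and filled points CD8, and circles are replicate 1 and squares replicate 2. The 4 WT libraries lie below the line and the 8 STAT3-deficient libraries above it at the levels as counted, in which reads that Klrc1 shares with other Klrc genes may be split or dropped.

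The level of the receptor relative to its adaptor shifted as well. The RPKM ratio of Klrk1 to Hcst was 0.104 and 0.0626 in CD4 WT, 0.449 and 0.345 in CD4 STAT3ko, and 0.330 and 0.316 in CD4 STAT3ko PD-1ko. In CD8 it was 0.819 and 0.706 in WT, 1.12 and 1.08 in STAT3ko and 1.63 and 1.30 in STAT3ko PD-1ko, with no overlap between genotypes in either subset. In CD8 STAT3ko PD-1ko, Klrk1 and Hcst were both lower than in STAT3ko, and Hcst by the larger log2 fold change.

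After the mean of each subset was removed, the log2 levels of Klrd1 followed those of Klrc1 (Pearson r = 0.909), Klrc2 (0.886) and Klre1 (0.885) over the 12 libraries, and Klrk1 followed Klrg1 (0.883). Hcst followed Klrc1 (0.864) and was only weakly related to Klrk1 (0.221) and Klrg1 (0.165). These points share their 6 groups and describe the same genotype differences. Among 8605 other genes whose log2 CPM averaged 3 or more, those nearest to Klrk1 were Klrg1, the granzyme gene Gzmk (0.880) and Gbp7 (0.871). Those nearest to Klrd1 were Pnrc2 (0.980), Zfp748 (0.973) and St8sia4 (0.970), and those nearest to Klrc1 were Coro1a (0.978), Gpr171 (0.978) and Ptprc (0.976), the CD45 gene. Lmo4 (0.951), Ints8 (0.925) and Dynll1 (0.922) were nearest to Klrg1, and Sdcbp2 and Leprotl1 (both 0.978) to Hcst, with 1 more entry whose symbol stands in the file as a date. For the low genes these were 4930402H24Rik, Stx4a and Ppm1m (0.967 to 0.972) with Klrc2, Ptpn4, Calhm6 and Trim30a (0.905 to 0.936) with Klre1, and Stard3, Gm11110 and Lyrm2 (0.802 to 0.815) with Tyrobp, out of 8606 genes.

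Other lectin receptors of the same gene complex were read from a list of 21 genes, which include the Ly49 (Klra) and NKR-P1 (Klrb1) families, and 6 of them in CD4 and 9 in CD8 had enough counts to be tested. In CD8 STAT3ko PD-1ko against WT, 6 of 9 fell and none rose, among them Klrh1 by 3.93 ± 0.28 on the log2 scale (adjusted p = 0.00155), Klra3 by 3.19 (0.00594), Klra7 by 2.81 (0.00823) and Klra5 by 2.66 (0.0335). Klrh1 fell already in CD8 STAT3ko against WT (−2.65, adjusted p = 0.0454), the single call of this list there. Against STAT3ko, Klra3 (−2.09, 0.0208) and Klrh1 (−1.28, 0.0289) fell and Klrb1b rose (0.64, 0.0197). In CD4, 1 of 6, Klrb1f, fell against WT in STAT3ko PD-1ko (−2.06, 0.00414), and Klra3 (−2.99, 0.0372) and Klrb1f (−0.92, 0.0434) fell against STAT3ko. In WT, 6 of 9 were higher in CD8 and Klrb1f was lower (−1.36, 0.00719), with Klrh1 at 5.96 (1.41e-05), Klra7 at 4.205 (0.00288), Klrb1b at 2.42 (0.000580) and Klra5 at 2.32 (0.0274). In STAT3ko and in STAT3ko PD-1ko, Klrh1 and Klrb1b were higher and Klrb1f lower in CD8.

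Of 12 genes for ligands of these receptors, 3 in CD4 and 4 in CD8 could be tested. Ulbp1, an NKG2D ligand, rose in STAT3ko PD-1ko against WT in CD4 (0.91 ± 0.17, adjusted p = 0.0151) and CD8 (0.72 ± 0.13, 0.0147). H2-T23, which encodes Qa-1b, the ligand of the CD94 dimers, fell in CD8 STAT3ko PD-1ko against WT (−0.59, 0.0155) and against STAT3ko (−0.64, 0.0130), and was lower in CD8 than in CD4 in each genotype (−0.39, −0.43 and −0.55). Cdh1, the gene of the KLRG1 ligand E-cadherin, fell in CD4 STAT3ko PD-1ko against WT (−2.01, 0.0222).

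The 19 signalling genes downstream of the adaptors were all tested. In CD8 STAT3ko PD-1ko against WT, 2 rose and 7 fell, with Pik3r2 at 1.65 (adjusted p = 0.00569), the adaptor Lat2 at −1.17 (0.00941), Vav2 at 1.08 (0.0277) and the PI3K catalytic subunit gene Pik3cd at −0.83 (0.00604). Against STAT3ko, 2 rose and 5 fell, with the kinase Syk at −1.55 (0.00893), Pik3r2 at 1.10 (0.0172), Vav2 at 1.07 (0.0307) and Pik3cd at −0.85 (0.00646). In CD4 STAT3ko PD-1ko against WT, Pik3r2 rose (1.36, 0.0131) and Plcg2 (−1.08, 0.0325), Pik3cd (−0.83, 0.0245) and Lcp2 (−0.58, 0.0305) fell, and against STAT3ko, Pik3r1 (−0.78, 0.0215) and Vav3 (−0.64, 0.0395) fell. In WT, 2 were higher and 4 lower in CD8 than in CD4, led by Lat2 (2.85) and Vav3 (−1.40). The phosphatase gene Inpp5d, whose product SHIP-1 is recruited by inhibitory receptors, was 1 of 3 phosphatase genes and fell in STAT3ko PD-1ko against STAT3ko in CD4 (−0.61, 0.0488) and CD8 (−0.61, 0.0182), and against WT in CD8 (−0.57, 0.0197).

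Among 5 other ITAM adaptor genes, Fcer1g, which encodes the Fc receptor gamma chain, rose in CD4 STAT3ko PD-1ko against WT (1.29 ± 0.29, adjusted p = 0.0293) and STAT3ko (1.52, 0.0234) and in CD8 against STAT3ko (0.73, 0.0208), the reverse of Hcst. Cd247, the CD3 zeta gene, fell in CD8 STAT3ko PD-1ko against WT (−0.64, 0.0107) and STAT3ko (−0.56, 0.0166), as did Cd3d against WT (−0.67, 0.0169). Of 7 receptor genes known to pair with DAP12 in myeloid cells, 1, Pilrb1, could be tested and it passed in no comparison by edgeR (adjusted p = 0.296 in CD4 STAT3ko against WT, log2 fold change −2.06). Of 10 other NK receptor genes, 9 were tested: Slamf7 (−1.19, 0.0334), Cd226 (−0.82, 0.0288) and Cd96 (−0.48, 0.0235) fell in CD8 STAT3ko PD-1ko against WT. Slamf7 (−1.23, 0.0327) and Cd226 (−0.73, 0.0423) fell also against CD8 STAT3ko. In CD4, Cd244a (2B4) rose in STAT3ko PD-1ko against WT (1.24, 0.0387) and STAT3ko (1.49, 0.0287), while Tigit fell against WT (−0.59, 0.0280) and Slamf7 against STAT3ko (−0.97, 0.0488). In WT, Cd244a (4.32), Crtam (3.63) and Cd160 (2.37) were higher and Slamf6 (−0.62) lower in CD8 than in CD4.

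Genes that accompany KLRG1 in effector T cells, and genes of memory precursors, were read as 2 further lists. Of 7 effector genes tested, 4 fell in CD8 STAT3ko PD-1ko against WT, namely Gzma (−2.00, adjusted p = 0.00224), Id2 (−1.38, 0.0135), Cx3cr1 (−1.27, 0.0443) and Gzmb (−1.25, 0.00529). Klrg1 did not pass in that comparison. Cx3cr1 (−2.11, 0.0119) and Gzma (−0.92, 0.0130) fell against CD8 STAT3ko, where Klrg1 fell too. In CD4 STAT3ko PD-1ko, Gzma (−1.63, 0.00834) and Id2 (−1.24, 0.00530) fell against WT and Id2 (−0.64, 0.0405) against STAT3ko. Of 5 memory precursor genes, 4 fell in CD4 STAT3ko PD-1ko against WT, namely Id3 (−3.18), Tcf7 (−2.89), Bcl6 (−2.20) and Il7r (−0.92), and the same 4 fell against STAT3ko. In CD8, Bcl6 (−2.16) and Id3 (−1.964) fell against WT.

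In STAT3ko against WT, 1 gene of all these lists passed by edgeR, Klrh1 in CD8 cells. Before adjustment 20 of 58 list genes tested in CD4 and 23 of 62 in CD8 were below 0.05, where 10.5% and 11% of all genes were, and DESeq2 called 5 and 9 of them, with 271 and 218 calls over all genes. The list medians of the log2 fold change in CD8 STAT3ko PD-1ko against WT, where all genes had a median of 0.00, were −2.39 for the other lectin receptors, −1.25 for the effector genes, −0.95 for the ligands, −0.70 for the memory precursor genes, −0.39 for both the ITAM adaptors and the other NK receptors, and −0.35 for the signalling genes and the phosphatases. In CD4 they were −0.80, −2.20, −0.47, −0.41, −0.14, −0.28, −0.33 and −0.38 in the order other lectin receptors, memory precursor, effector, ligand, ITAM adaptor, other NK receptor, signalling and phosphatase genes. The other lectin receptors thus had the lowest median in CD8 and the memory precursor genes the lowest in CD4, and whether a list differed from the 8 members was not tested.

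Markers of other cells were low or uneven. The 13 macrophage markers summed to 7.53 to 40.5 CPM, with Cd68 the most abundant in every library. In replicate 2 of WT and of STAT3ko, in both subsets, 2 or 3 of the 13 were under 10 counts, against 12 of 13 in each of the other 8 libraries, and there Cd68 gave 8.68 of 20.8 CPM and 6.94 of 15.7 in CD4 and 28.9 of 40.5 and 27.8 of 36.2 in CD8. These 4 libraries thus held more of the macrophage markers than their partners, and the part of this in the members' levels was not tested. The B cell, hepatocyte and gamma-delta T cell markers that could be read were lower still. Of 3 hepatocyte markers tested, 1 rose in CD8 STAT3ko PD-1ko against STAT3ko. There the 7 hepatocyte markers summed to 3.27 and 5.06 CPM, beside 1.47 and 1.88 in CD8 STAT3ko. The 5 liver endothelial markers were not low and summed to 110 to 198 CPM, almost all of it from Pecam1. Of 8 neutrophil and monocyte markers, Ccr2 was the most abundant, and the list summed to 588 and 492 CPM in CD4 WT, 377 and 301 in CD4 STAT3ko and 62.2 and 30.7 in CD4 STAT3ko PD-1ko. In CD8 it summed to 430 and 514, then 229 and 297, then 50.3 and 22.4 CPM. Ccr2 fell in both comparisons that involve STAT3ko PD-1ko in each subset, as did Itgam and the dendritic cell marker Itgax. Itgax fell also in CD4 STAT3ko against WT (−1.30, 0.0377). Activated T cells can also express these 3 genes. The 7 T cell markers, led by Thy1, summed to 5666 and 4802 CPM in CD4 WT, 5278 and 4649 in CD4 STAT3ko and 4485 and 4103 in CD4 STAT3ko PD-1ko. In CD8 cells they summed to 5320 and 4913, then 5017 and 4750, then 3872 and 3744 CPM, so they too were lowest in STAT3ko PD-1ko, where 2 of 7 fell against WT, Cd2 (−0.69, adjusted p = 0.00979) and Cd3d (−0.67, 0.0169). The B cell marker Cd79b fell in CD8 STAT3ko PD-1ko against WT (−1.18, 0.0149) and STAT3ko (−1.23, 0.0143), and the other 3 B cell markers stayed under 10 counts in every library. The part of the cells behind these markers in the members' lower levels was not tested.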

How the data were processed

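RNA was sequenced as 51-base single-end reads from sorted donor T cells, each library a pool from 3 recipients. The deposited counts per gene were made by the authors with STAR and HTSeq-count on the mm10 build; the labels' growth protocol and kit differ from the study's methods and were not used. The RPKM values were computed by the authors after TMM scaling and were deposited with the counts; they were used in limma, while the RPKM levels and shares in the text were recomputed from the counts with TMM factors and the deposited exon lengths. From the deposited counts, edgeR (4.0.16) gave TMM CPM and log2 fold changes, after filterByExpr (minimum count 10, minimum total 15), by glmQLFit and glmQLFTest: 1 fit of 6 libraries per subset for genotypes (3 residual degrees of freedom) and 1 of 12 for subsets and interactions (6). Adjusted p-values cover all genes tested, and changed means below 0.05. All 8 members passed the filter. DESeq2 (1.42.0) and limma (3.58.1, pseudocounts 1 and 0.1) were alternatives, as were other scaling, filters, blocks and leaving out each library (closing section). Scripts were tested on simulated data.

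The members, lists and motifs were chosen with earlier results of these data known. Named genes are all 8 members, the targeted genes, list genes past the threshold (at most 4 a list and comparison, by size of change), the leading and near-absent markers, and the 3 genes most like each member. Cd244 was read as Cd244a through RefSeq synonyms. 1 gene of the memory precursor list is not reported here and was left out of that list's counts and medians. The gamma-delta constant region genes were not used here, and Sox13 was read alone. Replicates differed far beyond counting noise (chi-square per gene 28.23 to 78.97). Same-numbered CD4 and CD8 libraries were taken as pairs because they came from the same livers; their deviations from the group means correlated at 0.646, 0.642 and 0.874. The library numbers in the labels run in 2 series, 1 for each replicate number; whether these are batches shared by the genotypes is not stated, so the fits without a block are the main ones and the blocked values stand beside them where a call changes.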

Additional observations from a re-analysis of the deposited data

Results flagged for a closer look

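For Klrk1 the difference between the subsets in their response to genotype passed in DESeq2 and did not pass in edgeR after the main filter. By DESeq2 the change in STAT3ko against WT was lower in CD8 than in CD4 cells, with a log2 difference of −1.75 (adjusted p = 0.00736), and so was the change in STAT3ko PD-1ko against WT, at −1.59 (adjusted p = 0.00585). By edgeR the same differences were −1.76 (adjusted p = 1.00) and −1.60 (adjusted p = 0.254), and the second passed by edgeR when all genes with at least 1 count were tested (−1.61, adjusted p = 0.0134). Both were drawn to attention because 2 cell subsets moved unequally under the same contrast. Every library left out in turn kept them negative, between −2.24 and −1.39 and between −2.08 and −1.23. The comparisons share the WT libraries, and the cause was not tested.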

How the results depend on the processing

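The numbers of members called under settings other than leaving out a library are given where they moved by more than 1.5 times; smaller moves, of 1 or 2 members, were made in further settings. In CD4 STAT3ko against WT the count was 2 by DESeq2, 3 with a replicate block, and 0 by limma with either pseudocount or with only the 4 libraries. In CD4 STAT3ko PD-1ko it was 1 against WT with RLE factors, 5 against WT and 7 against STAT3ko with the replicate block; limma on log2(RPKM + 1) called 2 against WT but Klrc2 and Hcst in place of Klrk1 and Hcst. It was 1 in CD8 STAT3ko against WT by DESeq2. In CD8 against CD4 it was 5 in WT by DESeq2, with the replicate block and with the block by pool, and 1 in STAT3ko PD-1ko with at least 10 counts in every library or by limma on log2(RPKM + 1). For the interactions it was 1 by DESeq2 in both contrasts with WT, and 1 in that of STAT3ko PD-1ko when all genes with at least 1 count were tested. Same-numbered libraries of WT and STAT3ko correlated in their deviations at 0.83 in CD4 and 0.839 in CD8. Those of STAT3ko PD-1ko correlated less, at 0.387 with WT and 0.22 with STAT3ko in CD4. In CD8 they correlated at 0.191 with WT and 0.0397 with STAT3ko. The pool block changed no call other than those in the text.

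Leaving out 1 library gave 0 to 1 members in CD4 STAT3ko against WT, 0 to 1 in CD4 STAT3ko PD-1ko against WT, 0 to 5 against STAT3ko, 0 to 0 in CD8 STAT3ko against WT, 1 to 3 and 0 to 6 in the other CD8 contrasts, and 3 to 3, 0 to 2 and 0 to 1 in CD8 against CD4 for WT, STAT3ko and STAT3ko PD-1ko. A group then had 1 library, assumed to vary like the others.

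The number of all genes called moved by more than 1.5 times in these contrasts: for CD4 STAT3ko against WT from 40 to 271 (DESeq2), 165 (all genes with a count), 303 (replicate block), 164 (12 libraries) and 1 (only the 4 libraries), and for CD8 from 7 to 218 (DESeq2), 66 (all genes with a count), 20 (12 libraries) and 0 to 3 in 5 other settings. For CD4 STAT3ko PD-1ko it moved from 1538 to 3104 (replicate block) and 2462 (12 libraries) against WT, and from 1324 to 2100 (DESeq2), 3105 (replicate block) and 2299 (12 libraries) against STAT3ko. For CD8 against CD4 it moved from 1294, 1187 and 511 to 2991, 3077 and 1774 with the pool block and to 2014, 1909 and 939 with the replicate block. For the interactions, from 0, 1 and 0, it was 5, 75 and 21 by DESeq2, 0, 84 and 22 with the pool block, 8, 46 and 6 by limma on log2(RPKM + 1), and 0, 50 and 9 with all genes with a count. The interaction of STAT3ko PD-1ko against WT also had 28 with the replicate block and 7 by limma on log2(RPKM + 0.1).

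Directions reversed only where nothing was called. By limma with pseudocounts 1 and 0.1, Klre1 in CD8 STAT3ko against WT was −0.028 and −0.038, Klrd1 in CD8 against CD4 STAT3ko was 0.012 and 0.013 (0.023 with the replicate block), and Tyrobp in CD8 against CD4 STAT3ko PD-1ko was −0.0026 and −0.093. Hcst in CD8 against CD4 WT was −0.0033 with the pool block. With 1 library left out, sign changed within these log2 ranges: Klrc1 −0.31 to 0.51 in CD4 STAT3ko against WT; Klre1 −0.86 to 0.60 in CD4 STAT3ko PD-1ko against WT and −0.48 to 0.38 in CD8 STAT3ko against WT, where Tyrobp ran from −0.52 to 0.19. Klrg1 ran from −0.052 to 0.26 in CD8 STAT3ko PD-1ko against WT and −0.42 to 0.38 in CD8 against CD4 WT, Hcst from −0.21 to 0.18 there and −0.27 to 0.13 in STAT3ko, where Klrd1 ran from −0.37 to 0.35 and Tyrobp from −0.051 to 0.68. Tyrobp ran from −1.06 to 0.71 in CD8 against CD4 STAT3ko PD-1ko. The interaction of Klrk1 for STAT3ko PD-1ko against STAT3ko ran from −0.071 to 0.37 and that of Hcst for STAT3ko against WT from −0.28 to 0.16. The cause was not tested. Tyrobp, with 4 to 24 counts a library, is limited by depth.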
